A study of Homo sapiens with 8 samples.

Results

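The genes described here are 37 listed genes of sterol and fatty acid synthesis: 7 enzymes of the mevalonate pathway, 11 enzymes of the sterol branch that follows it, 5 genes that control the sterol regulatory element-binding proteins (SREBPs), 5 genes that move or degrade sterols and their receptors, and 9 genes of fatty acid synthesis. They were listed by name and role, with earlier results of these data known. The shares of members called below are thus not those of a set chosen blind. Of the 37, 36 matched an Ensembl identifier among the 57736 in the count table, and all 36 had enough reads to be tested. ACACA had no matched identifier and is not analysed here. RNA was sequenced from the established human cell line RMG1, derived from a clear cell carcinoma of the ovary, in 4 groups of 2 libraries. Knockout cells (KO) had lost ARID1A, a DNA-binding subunit of the BAF chromatin remodelling complex, and were set against wild-type cells (wt). Knockdown cells (KD) had reduced CAPH2, the product of NCAPH2 and a subunit of condensin II, and were set against cells with a control shRNA (ctr). The wt and ctr cells both carried unaltered ARID1A and CAPH2, the KO cells kept CAPH2, and the KD cells kept ARID1A, per the labels. The labels do not say whether the knockout was a single clone, how many hairpins were used, or whether replicate libraries were grown as separate cultures. The p-values therefore speak for the scatter among the sequenced libraries alone, and that scatter may be technical.

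Cells make cholesterol from acetyl-CoA through mevalonate, farnesyl diphosphate, squalene and lanosterol. The genes of these enzymes are targets of the SREBPs, transcription factors made as membrane proteins of the endoplasmic reticulum: SCAP carries them to the Golgi for cleavage when sterols are low, and the INSIG proteins hold SCAP back when sterols are high. SREBF2 encodes the factor that mainly drives sterol genes, SREBF1 encodes the forms that mainly drive fatty acid genes, and INSIG1 is itself an SREBP target. When oxysterols build up, the liver X receptors raise the export pumps ABCA1 and ABCG1, the ubiquitin ligase MYLIP and SREBF1.

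Promoter windows from RefSeq (GRCh38.p14), reaching from 250 bases before to 50 bases after an annotated start, were found for 31 members, in 42 windows. They are shown for both SREBP genes, for INSIG1, the control gene that changed in both comparisons below, and for HSD17B7, a sterol enzyme whose level fell by a like amount to INSIG1 in the knockdown. Each is written 5′ to 3′ on the strand of the gene, and capitals mark every match, on either strand, to 4 sequences: TCACNCCAC, a core of the sterol regulatory element (N is any base), CACGTG, the E-box, CCAAT, bound by NF-Y, and GGGCGG, bound by SP1. The files were aligned to another build, hg19, so these coordinates serve only to place the windows.

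SREBF1, chr17:17836937-17837236, minus strand: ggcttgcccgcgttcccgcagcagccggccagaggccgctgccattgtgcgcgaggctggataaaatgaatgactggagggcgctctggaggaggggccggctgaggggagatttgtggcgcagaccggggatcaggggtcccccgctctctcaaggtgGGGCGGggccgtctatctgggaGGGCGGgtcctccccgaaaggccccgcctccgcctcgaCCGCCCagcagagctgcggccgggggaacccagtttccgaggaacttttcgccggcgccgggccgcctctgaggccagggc
SREBF2, chr22:41832855-41833154, plus strand: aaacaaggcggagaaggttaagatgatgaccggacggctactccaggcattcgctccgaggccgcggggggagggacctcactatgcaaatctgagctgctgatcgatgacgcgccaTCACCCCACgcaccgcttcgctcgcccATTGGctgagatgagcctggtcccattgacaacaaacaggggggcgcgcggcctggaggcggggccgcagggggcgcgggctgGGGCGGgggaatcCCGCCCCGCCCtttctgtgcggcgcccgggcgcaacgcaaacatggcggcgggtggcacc
INSIG1, chr7:155297628-155297927, plus strand: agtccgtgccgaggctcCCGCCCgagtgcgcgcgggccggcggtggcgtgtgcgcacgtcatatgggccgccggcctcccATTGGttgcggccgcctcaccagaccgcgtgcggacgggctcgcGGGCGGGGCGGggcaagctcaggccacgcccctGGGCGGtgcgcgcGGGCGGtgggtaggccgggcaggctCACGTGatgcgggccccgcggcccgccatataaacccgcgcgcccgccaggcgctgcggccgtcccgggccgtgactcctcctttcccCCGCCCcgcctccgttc
HSD17B7, chr1:162790452-162790751, plus strand: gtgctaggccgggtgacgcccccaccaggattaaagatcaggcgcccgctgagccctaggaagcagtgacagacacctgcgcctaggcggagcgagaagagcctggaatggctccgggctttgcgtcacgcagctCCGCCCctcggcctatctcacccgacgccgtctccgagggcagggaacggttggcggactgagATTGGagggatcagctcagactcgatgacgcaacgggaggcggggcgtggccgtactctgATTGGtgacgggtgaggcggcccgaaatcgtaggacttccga

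Among the 42 member windows, the letters TCACNCCAC were found in 1, that of SREBF2, where they begin 133 bases before the start (2.38% of member windows, against 1.13% of all 35116 windows in the table). CCAAT was found in 24 member windows (57.1%, against 34.6% of all windows), GGGCGG in 38 (90.5%, against 45.0%) and CACGTG in 6 (14.3%, against 7.26%). Counted by gene, of the 9 members with a window that fell in the knockdown, 9 held GGGCGG, 6 held CCAAT, 1 held CACGTG and 0 held TCACNCCAC. Of the 19 members with a window that did not pass there, 18 held GGGCGG, 13 held CCAAT, 4 held CACGTG and 1 held TCACNCCAC. GGGCGG was in 30 of the 31 members with a window and TCACNCCAC in 1, so neither could set apart the members that fell. For CCAAT and CACGTG the counts are given without a test. Among all 27305 genes with a window, 48.3% held GGGCGG, 39.7% CCAAT, 8.77% CACGTG and 1.39% TCACNCCAC. These are matches of letters, not sites shown to be bound, and a window without a match says nothing about binding elsewhere. ABCG1, ACAT2, SQLE, FASN and FDFT1 had no window. Of these, ACAT2, SQLE, FASN and FDFT1 fell in the knockdown, so the comparison by gene leaves them out.

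Libraries held 24559547 to 37378691 assigned reads. Levels are given as CPM (read counts relative to library size), scaled by trimmed means of M values (TMM), with both libraries of a group, or as mean ± SD over 2 libraries. Changes are log2 fold changes with the standard error (SE) of an edgeR fit to all 8 libraries, and a gene is said to have risen or fallen where edgeR's Benjamini-Hochberg adjusted p over the 16657 genes tested was under 0.05. ARID1A stood at 6.66 and 5.61 CPM in the KO libraries, against 8.80 and 12.1 CPM in wt (log2 fold change -0.77, SE 0.16, edgeR adjusted p 0.00274), so part of its transcript was still counted. NCAPH2 stood at 8.98 and 8.74 CPM in KD, against 24.0 and 25.8 CPM in ctr (-1.49). It was also lower in KO than in wt (-0.34, edgeR adjusted p 0.0144). Of 8 epithelial and clear cell markers, 7 matched an identifier, and their summed level was 3760 to 3774 CPM in KO, 4733 to 5334 CPM in wt, 6376 to 6435 CPM in KD and 5585 to 5612 CPM in ctr. The single markers did not move together: in KO, SPP1 (815 CPM, against 1828 CPM in wt), KRT8 and KRT19 fell, CDH1 (296 CPM, against 152 CPM in wt) and EPCAM rose, and KRT18 and PAX8 did not pass, while in KD SPP1 rose (0.46), PAX8 fell (-0.49) and the other 5 did not pass. Summed fibroblast markers (8 of 8 matched) reached 1.10 to 1.12 CPM in KO and 0.435 to 0.496 CPM in wt, with COL1A2 and COL3A1 at 0 in all libraries. Among them LUM rose, averaging 0.53 CPM in KO with 0 counts in wt, KD and ctr. COL1A1 (0.35 CPM in KO, 0.30 CPM in wt) did not pass, and the others were too low to be tested. Summed leukocyte markers (6 of 6 matched) reached 4.15 to 5.15 CPM in KO and 1.30 to 2.98 CPM in wt, with CD3E at 0. Within the leukocyte list PTPRC averaged 2.12 CPM in KO and 0.02 CPM in wt and rose, CD14 averaged 0.01 CPM in KO and 0.40 CPM in wt and fell, and CD68 averaged 2.31 CPM in KO and 1.72 CPM in wt and did not pass. Summed endothelial markers (3 of 4 matched) reached at most 0.124 CPM in a library. The part of these markers in the results below was not tested, and in bulk RNA fewer cells of a type and less RNA per cell cannot be told apart.

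The first comparison asked which of these genes changed with loss of ARID1A. The knockout did not move them as a block. Sterol export and trafficking genes split most sharply: the lysosomal cholesterol transporter NPC1 and the pump ABCA1 were higher and the pump ABCG1 far lower. The enzymes moved in both directions: MVK, SC5D, FASN and SCD fell and the elongase ELOVL6 rose. NPC1, ABCA1, ABCG1 and SCD differed in the same direction between ctr and wt, and FASN in the other. SCD averaged 317 CPM in KO and 316 CPM in ctr. MVK, SC5D and ELOVL6 did not pass in ctr against wt. In all, 21 of the 36 tested members changed (58.3%), against 34.5% of all genes tested. Of these, 10 rose (16.8% of all genes rose) and 11 fell (17.8% of all genes fell), and the median change of the members was 0.03 on the log2 scale, against 0.00 for all genes tested. Well-expressed genes were called more often: 47.4% of genes with at least 10 CPM, and 19 of the 30 members with at least 10 CPM. Without KO replicate 1, 6 members rose and 7 fell, and without KO replicate 2, 5 rose and 8 fell.

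**Figure D1:**
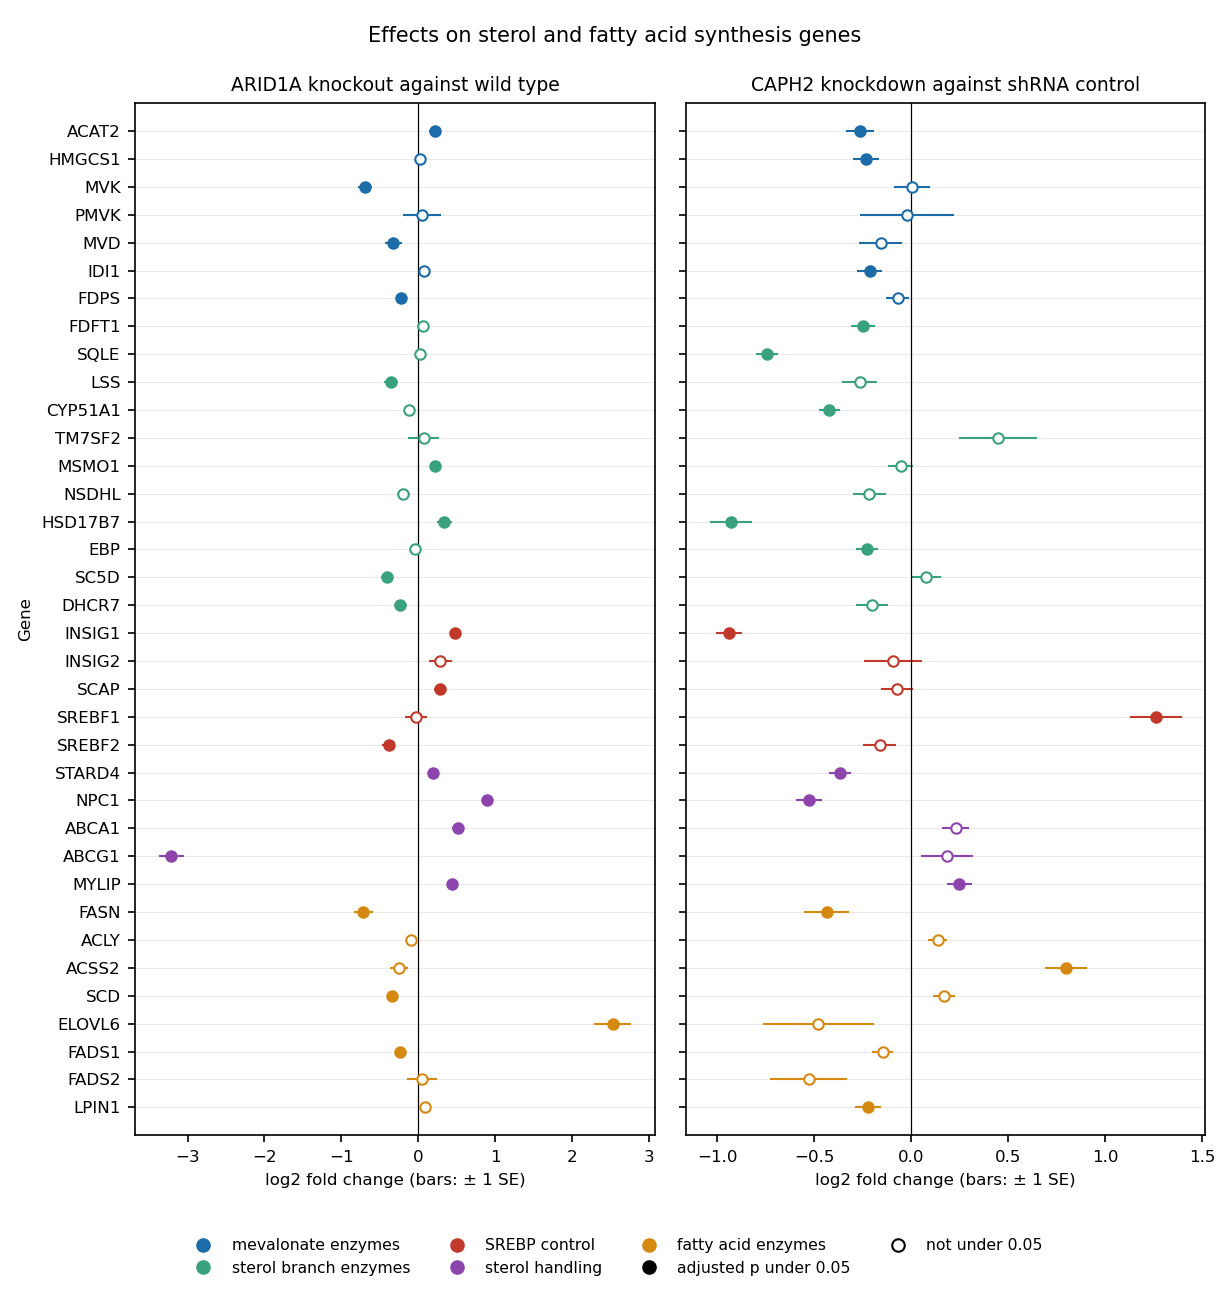
Log2 fold change (x axis, bars ± 1 SE) of each of the 36 tested genes (y axis, by role) in ARID1A knockout against wild type (left) and CAPH2 knockdown against shRNA control (right), with filled points where edgeR's adjusted p was under 0.05; the panels have different x ranges. In the knockout, filled points lie on both sides of 0 (10 higher, 11 lower), while in the knockdown 13 of 16 lie to the left.

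Among the control genes, INSIG1 stood at 93.7 and 100.4 CPM in KO, against 69.5 and 69.9 CPM in wt. Both KO libraries were above both wt libraries (log2 fold change 0.48, SE 0.07, edgeR adjusted p 1.61e-04). SREBF2 went the other way, with 33.3 and 29.7 CPM in KO, against 38.7 and 43.4 CPM in wt (-0.39, SE 0.09, edgeR adjusted p 0.00532). Its groups did not overlap, but the call was lost without KO replicate 2 (-0.31). SCAP, the escort protein, stood at 24.8 and 23.6 CPM in KO, against 18.8 and 20.9 CPM in wt (0.28, SE 0.08, edgeR adjusted p 0.0208). SREBF1 stood at 6.36 and 6.27 CPM in KO, between the 5.87 and 6.95 CPM of wt, and gave a log2 fold change of -0.03 with an SE of 0.14. INSIG2, the second INSIG gene, stood at 13.9 and 14.3 CPM in KO, against 12.6 and 10.6 CPM in wt, and did not pass the test (0.29, SE 0.15, edgeR adjusted p 0.166). Of the 5 control genes, 2 thus rose (16.8% of all genes rose), 1 fell (17.8% of all genes fell) and 2 did not pass.

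The 18 mevalonate and sterol enzymes had a median log2 fold change of -0.01, and 9 of them did not pass the test. A further 3 rose (16.8% of all genes rose) and 6 fell (17.8% of all genes fell). The largest of these changes was that of MVK, mevalonate kinase, at 11.1 and 12.4 CPM in KO, against 18.4 and 19.5 CPM in wt (-0.69, SE 0.09, edgeR adjusted p 1.64e-04). MVK shares exon bases on the opposite strand with MMAB, a gene of cobalamin metabolism with 327.9% of its counts, which also fell (-0.43, SE 0.06). The strand setting of the counting is not given in the sources used here, so reads of the shared bases cannot be told apart. Next to MVK in the pathway, PMVK, phosphomevalonate kinase, was at 3.26 ± 0.07 CPM in KO and 3.17 ± 0.49 CPM in wt, with a log2 fold change of 0.05 (SE 0.25). MVD, which makes isopentenyl diphosphate, averaged 10.3 ± 1.05 CPM in KO and 12.9 ± 0.16 CPM in wt (-0.32, SE 0.11, edgeR adjusted p 0.0465). FDPS, which builds farnesyl diphosphate, averaged 124 ± 7.80 CPM in KO and 146 ± 2.93 CPM in wt (-0.23, SE 0.06, edgeR adjusted p 0.0104). At the head of the pathway ACAT2, a cytosolic thiolase, was higher, at 139 ± 5.83 CPM in KO and 119 ± 12.9 CPM in wt (0.22, SE 0.07, edgeR adjusted p 0.0391). HMGCS1 (0.02) and IDI1 (0.08) did not pass.

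In the sterol branch, LSS, the cyclase that makes lanosterol, averaged 12.9 ± 0.91 CPM in KO and 16.4 ± 0.44 CPM in wt (-0.35, SE 0.09, edgeR adjusted p 0.0127). SC5D, a late desaturase, averaged 21.5 ± 1.71 CPM in KO and 28.4 ± 1.64 CPM in wt (-0.40, SE 0.08, edgeR adjusted p 0.00277). The 40 tested genes nearest to SC5D on its chromosome had a median of -0.38, almost the value of SC5D itself, and the neighbours of LSS and MVD had medians of -0.22 and -0.21. The part of the neighbourhood in these changes was not tested. DHCR7, the last enzyme of a branch to cholesterol, averaged 20.6 ± 0.30 CPM in KO and 24.2 ± 0.23 CPM in wt (-0.23, SE 0.08, edgeR adjusted p 0.0487), beside a neighbour median of -0.19. MSMO1, a methylsterol oxidase, averaged 97.7 ± 3.37 CPM in KO and 84.0 ± 5.49 CPM in wt (0.22, SE 0.06, edgeR adjusted p 0.0198), beside a neighbour median of 0.29. HSD17B7, a ketosteroid reductase of the same steps, stood at 77.2 and 78.5 CPM in KO, against 70.1 and 53.0 CPM in wt (0.34, SE 0.10, edgeR adjusted p 0.0211). Its wt libraries were far apart: the value was 0.55 without wt replicate 1, and 0.15 with the call lost without wt replicate 2. FDFT1, SQLE, CYP51A1, TM7SF2, NSDHL and EBP lay between -0.20 and 0.07 and did not pass. SQLE, squalene epoxidase and the enzyme gene with the highest level per exon length, stood at 392.7 and 380.1 CPM in KO, against 395.1 and 363.0 CPM in wt, with overlapping groups and a log2 fold change of 0.03 (SE 0.06).

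All 5 sterol handling genes changed in the knockout (34.5% of all genes tested changed, and 47.4% of those with at least 10 CPM), 4 upwards (16.8% of all genes rose). NPC1, which moves cholesterol out of lysosomes, stood at 162.0 and 143.8 CPM in KO, against 80.1 and 84.0 CPM in wt (0.90, SE 0.07, edgeR adjusted p 1.12e-06). ABCA1, which loads cholesterol onto lipid-poor apolipoprotein, stood at 30.4 and 28.2 CPM in KO, against 20.4 and 20.6 CPM in wt (0.52, SE 0.07, edgeR adjusted p 2.33e-04). ABCG1, which exports cholesterol to lipoprotein particles, stood at 1.37 and 1.38 CPM in KO, against 11.6 and 13.9 CPM in wt (-3.21, SE 0.16, edgeR adjusted p 5.86e-08). The mean of ABCG1 was thus 89.2% lower in KO than in wt, while that of the other pump, ABCA1, was higher. MYLIP, the ubiquitin ligase for lipoprotein receptors, averaged 40.9 ± 1.15 CPM in KO and 30.2 ± 0.91 CPM in wt (0.44, SE 0.07, edgeR adjusted p 3.14e-04). STARD4, a cytosolic sterol carrier, averaged 67.5 ± 0.24 CPM in KO and 59.2 ± 0.59 CPM in wt (0.19, SE 0.06, edgeR adjusted p 0.0232), beside a neighbour median of 0.18. NPC1 shares exon bases on the opposite strand with RMC1, which had 19.7% of its counts and did not pass (-0.11, SE 0.10).

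Of the 8 tested fatty acid genes, 1 rose (16.8% of all genes rose), 3 fell (17.8% of all genes fell) and 4 did not pass. FASN, the synthase that builds palmitate, stood at 22.3 and 24.4 CPM in KO, against 32.1 and 44.4 CPM in wt (-0.72, SE 0.12, edgeR adjusted p 8.82e-04). Its wt libraries were far apart as well: the value was -0.93 without wt replicate 1 and -0.46 without wt replicate 2, both still called. ELOVL6, which lengthens palmitate, stood at 15.2 and 17.3 CPM in KO, against 3.55 and 2.14 CPM in wt (2.53, SE 0.24, edgeR adjusted p 9.64e-06). Its neighbours had a median of 0.53. SCD, which desaturates stearate, averaged 317 ± 21.7 CPM in KO and 399 ± 7.96 CPM in wt (-0.34, SE 0.06, edgeR adjusted p 7.18e-04), close to the median of its neighbours, -0.35. In ctr, SCD averaged 316 ± 0.50 CPM, about as low as in KO. FADS1, a desaturase of polyunsaturated fatty acids, averaged 140 ± 3.96 CPM in KO and 166 ± 6.10 CPM in wt (-0.24, SE 0.05, edgeR adjusted p 0.00474). ACLY, ACSS2, FADS2 and LPIN1 lay between -0.25 and 0.08 and did not pass. FADS2 shares exon bases with FADS1 on the opposite strand and with FEN1 on its own, genes with 3259% and 2479% of its counts. Through 15 alternative settings and left-out libraries, 10 of the 21 calls held in each: MVK, SC5D, INSIG1, NPC1, ABCA1, ABCG1, MYLIP, FASN, SCD and ELOVL6. Without wt replicate 1 the calls of MSMO1, SCAP, STARD4, MVD and DHCR7 were lost (0.15, 0.21, 0.18, -0.34 and -0.25), and without wt replicate 2 those of ACAT2, HSD17B7, LSS, MVD and DHCR7 (0.11, 0.15, -0.32, -0.31 and -0.22), and MVD and DHCR7 lost theirs in 12 and 13 of the 15. Without KO replicate 1 those of ACAT2, HSD17B7, SCAP, STARD4, FDPS, FADS1, MVD and DHCR7 were lost (0.26, 0.35, 0.25, 0.19, -0.17, -0.21, -0.22 and -0.22), and without KO replicate 2 those of ACAT2, HSD17B7, SCAP, STARD4, MSMO1, SREBF2, LSS and DHCR7 (0.17, 0.33, 0.32, 0.18, 0.18, -0.31, -0.28 and -0.25).

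**Figure D2:**
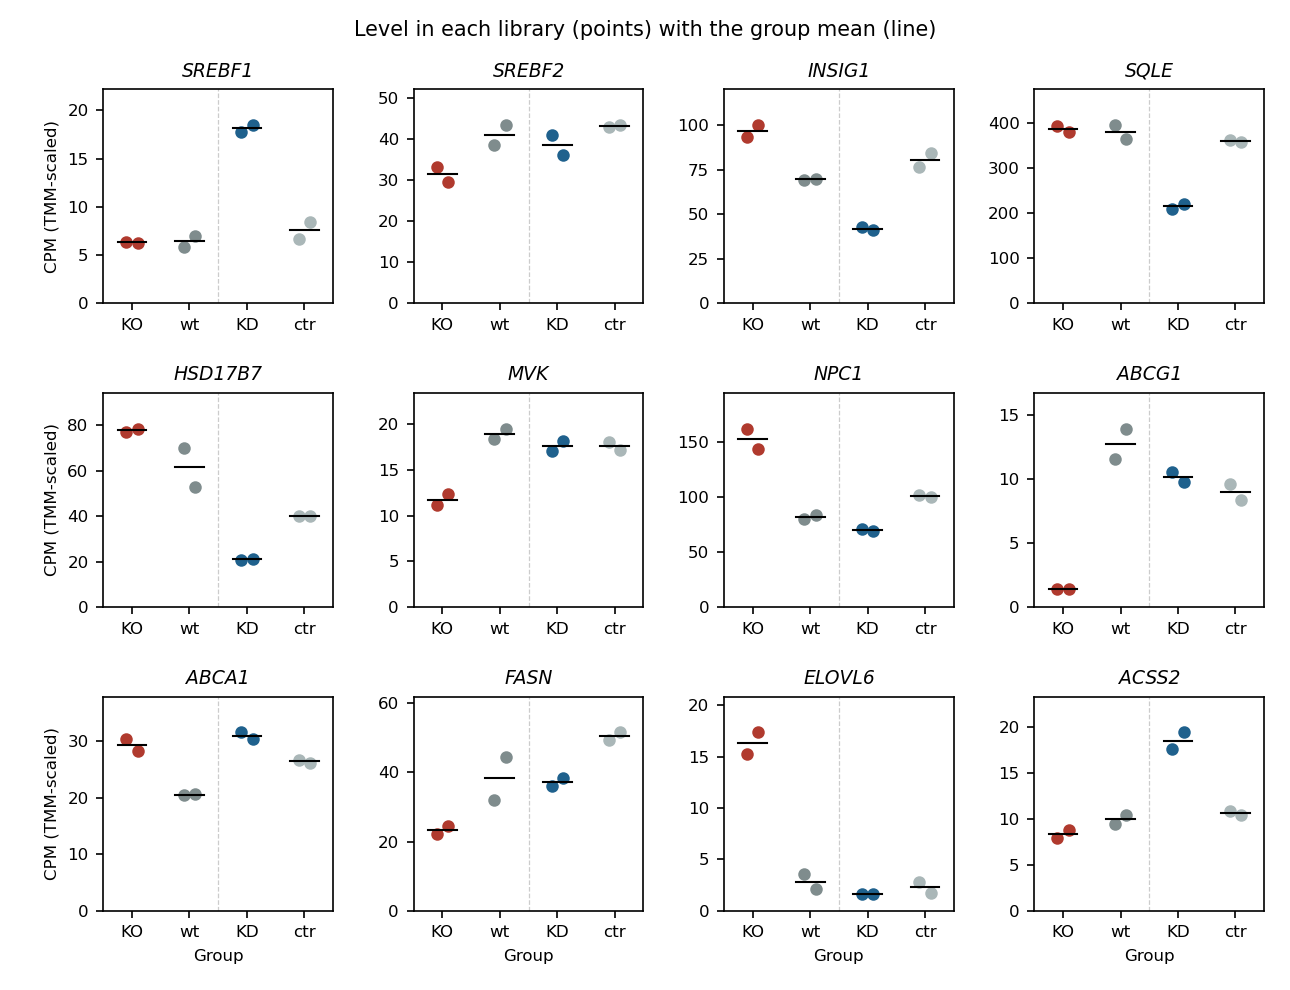
TMM-scaled CPM (y axis, from 0) of 12 genes in each library of the 4 groups (x axis), with a line at the mean of each group. NPC1 and ELOVL6 are higher and ABCG1 is lower in KO than in wt, while SREBF1 and ACSS2 are higher and INSIG1, SQLE and HSD17B7 are lower in KD than in ctr.

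The second comparison asked which of these genes changed with reduced CAPH2. Here the 18 listed mevalonate and sterol enzymes moved one way where they moved: 8 fell and 0 rose, led by HSD17B7 and SQLE. INSIG1, STARD4 and NPC1 fell with them. Against this, SREBF1 had 2.40 times its ctr level, and ACSS2, which makes acetyl-CoA from acetate, rose as well. Beyond the list the direction was mixed: of 28 other sterol and isoprenoid genes tested, 5 rose and 4 fell (7.62% and 8.22% of all genes). Among those that rose was the sterol reductase LBR (0.99). In all, 16 of the 36 members changed (44.4%), against 15.8% of all genes tested. Of these, 3 rose (7.62% of all genes rose) and 13 fell (8.22% of all genes fell), and the median change of the members was -0.18 on the log2 scale, against 0.00 for all genes tested. Among genes with at least 10 CPM, 24.9% were called, and so were 15 of the 30 members at that level. Without any 1 of the 4 KD and ctr libraries, 6 members fell, and the enzymes among them were SQLE, CYP51A1 and HSD17B7. Without wt replicate 1 or wt replicate 2, libraries that enter this comparison only through the shared filter, scaling and spread, 6 members rose.

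INSIG1 stood at 42.8 and 41.1 CPM in KD, against 76.5 and 84.5 CPM in ctr. Both KD libraries were far below both ctr libraries (-0.94, SE 0.07, edgeR adjusted p 2.60e-06). SREBF1 stood at 17.8 and 18.5 CPM in KD, against 6.69 and 8.41 CPM in ctr (1.26, SE 0.13, edgeR adjusted p 5.85e-05). The files count a gene as a whole, so the isoforms of SREBF1 are not told apart. SREBF1 shares exon bases on the opposite strand with RAI1, whose counts were 45.8% of its own and which did not pass the test (-0.48, SE 0.24). SREBF2 stood at 41.1 and 36.2 CPM in KD, against 42.9 and 43.5 CPM in ctr, and did not pass (-0.16, SE 0.09, edgeR adjusted p 0.247). SCAP stood at 22.5 and 21.1 CPM in KD, against 23.1 and 22.9 CPM in ctr, and did not pass (-0.08, SE 0.08). INSIG2 stood at 13.3 and 9.67 CPM in KD, against 13.1 and 11.5 CPM in ctr, with overlapping groups (-0.10, SE 0.15). Of the 5 control genes, 1 rose (7.62% of all genes rose), 1 fell (8.22% of all genes fell) and 3 did not pass.

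Levels were also taken per kilobase of exon, counting all annotated exons of a gene. That length can exceed the length of the transcripts present, so comparisons between genes on this scale are rough. SREBF1 stood at 2.26 CPM per kb in KD and 0.94 CPM per kb in ctr, and SREBF2 at 5.11 CPM per kb in KD and 5.72 CPM per kb in ctr. On that scale SREBF2 remained above SREBF1 in all 4 groups: in KO and wt, SREBF1 had 0.79 and 0.80 CPM per kb, and SREBF2 had 4.16 and 5.43 CPM per kb.

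Of the 18 mevalonate and sterol enzymes, 15 had a negative log2 fold change and the median was -0.22. SQLE, which adds the epoxide to squalene, stood at 208.7 and 220.2 CPM in KD, against 361.2 and 356.6 CPM in ctr (-0.74, SE 0.06, edgeR adjusted p 5.02e-06). HSD17B7 stood at 20.7 and 21.3 CPM in KD, against 40.1 and 39.9 CPM in ctr (-0.93, SE 0.11, edgeR adjusted p 1.38e-04). The copy HSD17B7P2, which can share reads with HSD17B7, held 92 to 233 counts a library and also fell, with 2.90 and 3.10 CPM in KD, against 5.48 and 6.51 CPM in ctr (edgeR adjusted p 0.00206). In the knockout the copy and the gene went opposite ways: HSD17B7P2 fell, with 3.54 and 3.47 CPM in KO, against 4.79 and 5.29 CPM in wt (-0.53, SE 0.17, edgeR adjusted p 0.0343), while HSD17B7 rose. CYP51A1, the lanosterol demethylase, averaged 114 ± 5.19 CPM in KD and 153 ± 6.04 CPM in ctr (-0.42, SE 0.06, edgeR adjusted p 3.37e-04). Smaller falls were found for ACAT2 (-0.27, SE 0.07), FDFT1, which makes squalene (-0.25, SE 0.06), HMGCS1, which makes the HMG-CoA from which mevalonate is formed (-0.23, SE 0.07), EBP, a sterol isomerase (-0.23, SE 0.06), and IDI1, the isomerase of isopentenyl diphosphate (-0.22, SE 0.06), with edgeR adjusted p-values of 0.0193 to 0.0395. ACAT2 shares exon bases on the opposite strand with TCP1, a chaperonin subunit gene with 456.4% of its counts, which rose (0.30, SE 0.05). MVK, with 17.1 and 18.1 CPM in KD and 18.0 and 17.2 CPM in ctr, had a log2 fold change of 0.00 (SE 0.09). LSS (-0.27), NSDHL (-0.22), DHCR7 (-0.20), MVD (-0.16), FDPS (-0.07), MSMO1 (-0.06), PMVK (-0.02), SC5D (0.08) and TM7SF2 (0.45) did not pass either. TM7SF2, a sterol reductase, had the lowest level per exon length of the 18 enzymes and lies on the same strand as VPS51, with which it shares exon bases and which had 473.0% of its counts.

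**Figure D3:**
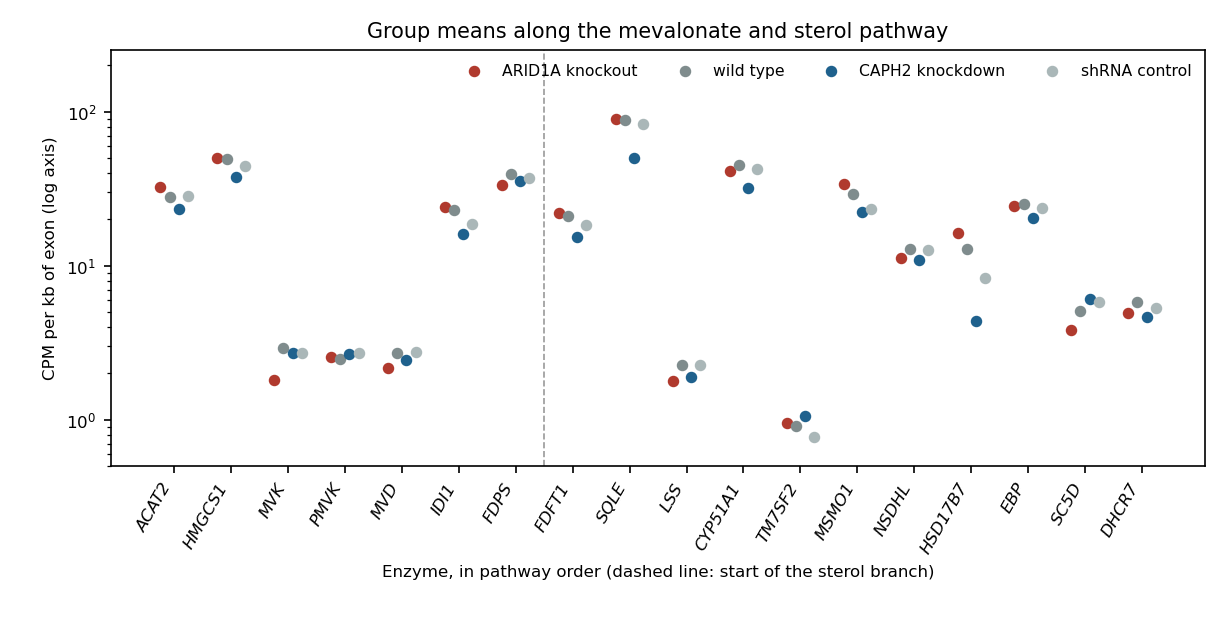
Mean level of the 18 mevalonate and sterol enzymes (x axis, in pathway order, dashed line at the start of the sterol branch) in CPM per kb of exon on a log axis, for the 4 groups. The KD points of SQLE (49.8 CPM per kb, against 83.4 in ctr) and HSD17B7 (4.39, against 8.38 in ctr) lie apart from the other groups, and the KO point of MVK (1.81, against 2.93 in wt) is its lowest.

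Along the pathway the level per exon length was uneven in each group. SQLE had 89.8, 88.0, 49.8 and 83.4 CPM per kb in KO, wt, KD and ctr, the highest of the 18 enzymes in each group. HMGCS1 came next in each, with 50.4, 49.7, 37.5 and 44.1 CPM per kb, and TM7SF2 was lowest, with 0.96, 0.91, 1.06 and 0.78 CPM per kb. The gap in level between SQLE and HMGCS1 was thus smaller in KD than in the other groups.

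Of the sterol handling genes, NPC1 stood at 71.1 and 68.6 CPM in KD, against 101.6 and 99.6 CPM in ctr (-0.53, SE 0.07, edgeR adjusted p 2.21e-04). STARD4 averaged 49.9 ± 1.23 CPM in KD and 64.4 ± 1.96 CPM in ctr (-0.37, SE 0.06, edgeR adjusted p 9.47e-04). MYLIP averaged 33.7 ± 0.61 CPM in KD and 28.4 ± 0.17 CPM in ctr (0.25, SE 0.07, edgeR adjusted p 0.0258). ABCA1, at 31.5 and 30.4 CPM in KD and 26.7 and 26.2 CPM in ctr, did not overlap between the groups but missed the threshold (0.23, SE 0.07, edgeR adjusted p 0.0534). ABCG1 stood at 10.6 and 9.80 CPM in KD, against 9.59 and 8.38 CPM in ctr (0.18, SE 0.13, edgeR adjusted p 0.426).

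Of the fatty acid genes, 1 rose (7.62% of all genes rose), 2 fell (8.22% of all genes fell) and 5 did not pass. ACSS2 stood at 17.6 and 19.4 CPM in KD, against 10.8 and 10.5 CPM in ctr (0.80, SE 0.11, edgeR adjusted p 3.52e-04). FASN stood at 36.0 and 38.4 CPM in KD, against 49.3 and 51.5 CPM in ctr (-0.44, SE 0.12, edgeR adjusted p 0.0272). LPIN1, a phosphatidate phosphatase that is also an SREBP target, averaged 41.9 ± 0.80 CPM in KD and 48.9 ± 1.22 CPM in ctr (-0.22, SE 0.07, edgeR adjusted p 0.0451). ELOVL6, at 1.67 and 1.61 CPM in KD and 2.85 and 1.76 CPM in ctr, did not pass (-0.48, SE 0.28, edgeR adjusted p 0.309). ACLY, the citrate lyase that supplies cytosolic acetyl-CoA (0.13), SCD (0.17), FADS1 (-0.15) and FADS2 (-0.53) did not pass either. The calls of SQLE, CYP51A1, HSD17B7, INSIG1, SREBF1, STARD4, NPC1 and ACSS2 held in each of the 15 alternatives. Those of ACAT2, HMGCS1, IDI1, FDFT1, EBP, MYLIP, FASN and LPIN1 were lost without any 1 of the 4 KD and ctr libraries, with log2 fold changes of -0.31 to -0.23, -0.27 to -0.20, -0.26 to -0.18, -0.29 to -0.21, -0.24 to -0.22, 0.23 to 0.26, -0.49 to -0.40 and -0.25 to -0.20 in that order.

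The effects of the knockout and the knockdown share no library, and the difference between them was tested for each gene in the same fit. Of the 36 members, 7 changed in both comparisons (19.4%, against 9.11% of all genes tested), and 5 of these went opposite ways (13.9%, against 4.26%): ACAT2, HSD17B7, INSIG1, STARD4 and NPC1 rose in KO and fell in KD. MYLIP rose in both and FASN fell in both (5.56%, against 4.85%). Only INSIG1 and NPC1 kept both calls in each of 15 alternatives. In KO the calls of ACAT2, STARD4 and HSD17B7 were lost in 8, 6 and 4 of these, and in KD those of ACAT2, MYLIP and FASN in 4, 5 and 4. A further 14 passed the threshold in KO alone (38.9%, against 25.4%) and 9 in KD alone (25.0%, against 6.73%), and 6 (PMVK, TM7SF2, NSDHL, INSIG2, ACLY and FADS2) passed in neither (16.7%, against 58.7%). By the test of the difference, 20 members had unlike effects (55.6%), against 26.3% of all genes tested, and 17 of the 30 members with at least 10 CPM did, against 37.7% of all genes at that level. The effect of KO was above that of KD in 13 (12.3% of all genes) and below it in 7 (14.0% of all genes). Without ctr replicate 2 or KD replicate 2, 13 members had unlike effects.

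**Figure D4:**
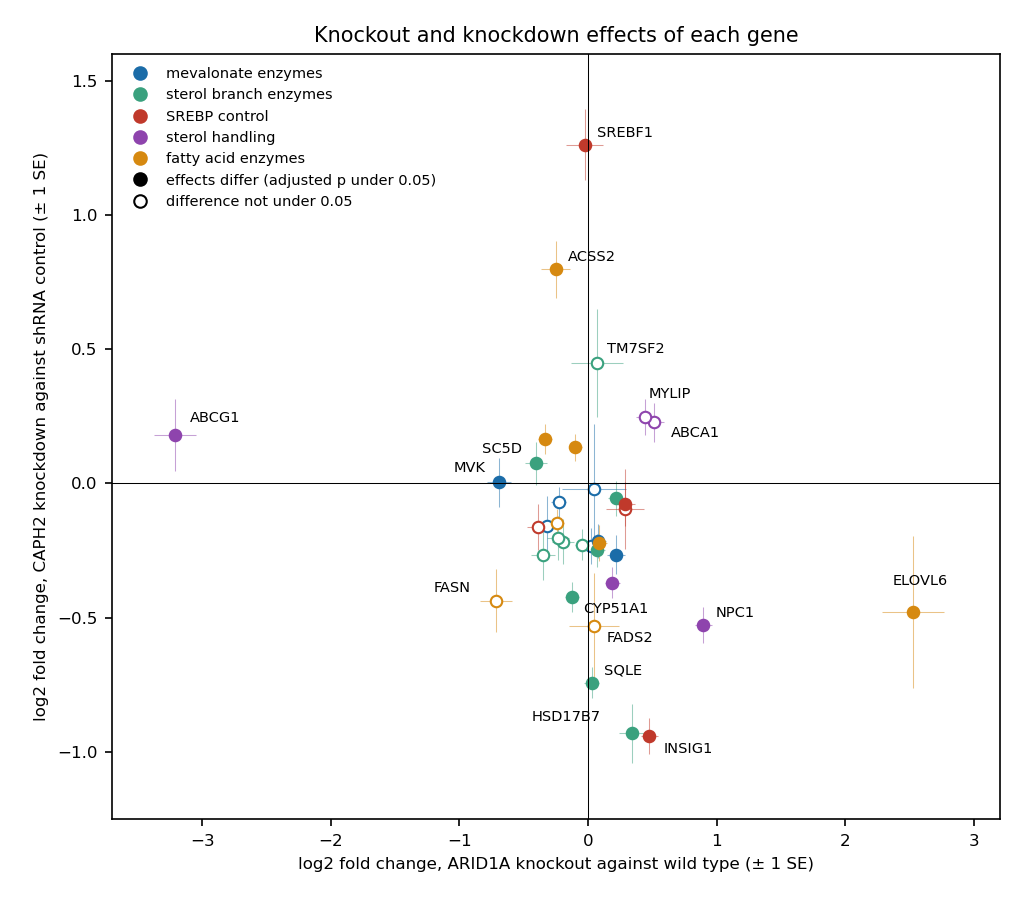
Log2 fold change of each tested gene in the ARID1A knockout (x axis) and in the CAPH2 knockdown (y axis), with bars of ± 1 SE and filled points where the effects differed (edgeR adjusted p under 0.05). INSIG1, HSD17B7 and NPC1 lie at the lower right, SREBF1 and ACSS2 at the top, ABCG1 at the far left and ELOVL6 at the far right.

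The effect of KO exceeded that of KD by 1.42 for INSIG1 (SE 0.09, edgeR adjusted p 7.46e-07) and by 1.42 for NPC1 (SE 0.09, edgeR adjusted p 7.18e-07). It exceeded it by 1.27 for HSD17B7 (SE 0.15), by 0.77 for SQLE (SE 0.08), by 0.56 for STARD4 (SE 0.08) and by 0.48 for ACAT2 (SE 0.10). For SQLE the difference came from a fall in KD beside a KO value near 0. ELOVL6 had the widest positive gap, 3.01 (SE 0.37, edgeR adjusted p 1.11e-04). On the other side, the difference was -3.39 for ABCG1 (SE 0.21, edgeR adjusted p 5.19e-07), -1.29 for SREBF1 (SE 0.20, edgeR adjusted p 5.18e-04), -1.05 for ACSS2 (SE 0.16, edgeR adjusted p 4.29e-04), -0.69 for MVK (SE 0.13) and -0.50 for SCD (SE 0.08). These 12 differences were called under each of 14 alternatives. For FASN the difference was -0.28 (SE 0.17, edgeR adjusted p 0.272), for MYLIP 0.19 (SE 0.09, edgeR adjusted p 0.163) and for SREBF2 -0.22 (SE 0.12, edgeR adjusted p 0.221), so unlike effects were not shown for these. The value of FASN rests on the wt libraries: without wt replicate 1 it was -0.49 and was called, and without wt replicate 2 it was -0.02.

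The ctr and wt cells differed from each other as well, and each is one side of a comparison above. Of the 36 members, 10 differed between ctr and wt (27.8%), against 19.2% of all genes tested: 4 were higher in ctr (9.13% of all genes) and 6 were lower (10.1% of all genes). At 10 CPM or more, 9 of the 30 members differed, against 30.3% of all genes at that level. HSD17B7 averaged 40.0 ± 0.15 CPM in ctr and 61.5 ± 12.1 CPM in wt (-0.62, SE 0.10, edgeR adjusted p 0.00183). SCD averaged 316 ± 0.50 CPM in ctr and 399 ± 7.96 CPM in wt (-0.34, SE 0.06, edgeR adjusted p 0.00180). IDI1, FDFT1, MSMO1 and ABCG1 were also lower in ctr, and INSIG1, NPC1, ABCA1 and FASN were higher, with log2 fold changes of -0.51 to -0.20 and of 0.21 to 0.39. The value of HSD17B7 was -0.41 without wt replicate 1 and -0.81 without wt replicate 2. The calls of HSD17B7 and SCD held in each of 15 alternatives and the other 8 did not, that of INSIG1 being lost in 13. Without ctr replicate 1, 2 members were called, and without ctr replicate 2, 4 were.

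Other genes of these pathways were taken from a list of 63, of which 57 were tested. Of the 28 tested sterol and isoprenoid genes in it, 5 rose and 6 fell in KO, and 5 rose and 4 fell in KD, where 16.8% of all genes tested rose and 17.8% fell in KO, and 7.62% rose and 8.22% fell in KD. Of the 29 tested fatty acid and glycerolipid genes, 10 rose and 7 fell in KO, and 6 rose and 4 fell in KD. The median log2 fold change of the 57 was -0.02 in KO and 0.10 in KD. In KO, changes of at least 1 on the log2 scale beside ELOVL6 were found in 5 of the 57. Of these, 3 are elongases like ELOVL6, a family of 7 in which 5 rose and 2 fell in KO. ELOVL2 averaged 15.9 CPM in KO and 4.62 CPM in wt (1.78, edgeR adjusted p 1.03e-05), and ELOVL4 averaged 9.17 CPM in KO and 2.08 CPM in wt (2.13, edgeR adjusted p 5.46e-06). ELOVL3 had 0 counts in both KO libraries and stood at 0.66 and 0.51 CPM in wt. It was at least 14.6-fold lower in KO when a floor of 3 counts for both KO libraries together is used. In ctr, ELOVL3 stood at only 0.19 and 0.08 CPM, and ctr against wt did not pass (-2.10, edgeR adjusted p 0.112). ELOVL7, chosen after its values were seen, fell to 47.2 CPM in KO, against 91.1 CPM in wt (-0.95, edgeR adjusted p 1.58e-07), while ELOVL1 (0.22) and ELOVL5 (0.24) rose. The desaturase SCD5 averaged 12.3 CPM in KO and 2.30 CPM in wt (2.41, edgeR adjusted p 3.88e-06), while SCD, the member with the same activity, fell. The acyl-CoA synthetase ACSS3 averaged 15.7 CPM in KO and 6.59 CPM in wt (1.25, edgeR adjusted p 1.38e-04). In ctr against wt, SCD5 (0.78) and ELOVL4 (0.80) were also higher and SCD was lower (-0.34), while ELOVL2 and ACSS3 did not pass. In KD, 0 of the 57 changed by 1 or more. LBR, a nuclear envelope protein that is also a sterol reductase and was chosen after its values were seen, came nearest, with 145 CPM in KD and 73.4 CPM in ctr (0.99, edgeR adjusted p 3.65e-07).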

How the data were processed

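The authors deposited expected counts for Ensembl genes in 1 table, with a column for each of 8 libraries and no pooling. Per the labels' protocols, total RNA was DNase-treated and made into libraries with a TruSeq total RNA kit. The submitters' processing notes name hg19, RSEM 1.2.12 and Bowtie2. The version of Bowtie2, the strand setting and the annotation release were not given in the sources used here. RSEM divides reads that match several genes, so genes with near copies or overlapping partners are uncertain. The expected counts were whole numbers as deposited, so rounding changed none. There were 57736 identifiers, of which 29952 had a count. A table of Ensembl names gave 51959 a symbol, GENCODE 29 (GRCh38) gave 342 more, and 5435 stayed without. GENCODE 29 also gave gene order and exon length, the latter merged over all annotated exons of a gene.

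Counts were tested with edgeR 4.0.16 in R 4.3.3. Genes were kept by filterByExpr (minimum count 10) and scaled by TMM. The quasi-likelihood F-test used group means over all 8 libraries. It had 4 residual degrees of freedom, and the common biological coefficient of variation was 7.74%. Contrasts were KO minus wt, KD minus ctr, the difference of these, and ctr minus wt, each with Benjamini-Hochberg adjustment over 16657 genes and a threshold of 0.05. The SE is the log2 fold change over the root of F. Counts were simulated for the same 16657 genes with the common spread, altering 100 genes by 1 and 100 by 0.5 on the log2 scale. The filter then kept 16025 genes for KO against wt and 16029 for KD against ctr. Of the altered genes kept, 84.8% (KO against wt) and 79.8% (KD against ctr) were recovered at 1, and 44.9% and 42.3% at 0.5. Fewer genes were altered than were called in the data. The adjusted threshold was thus harder to pass, and these shares need not hold for the members. A neighbour median covers up to 20 tested genes on each side. The floor of 3 counts covers counting error only, since PCR copies are not independent molecules.

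The members and the other gene lists were chosen with earlier results of these data known. Values of every library are given for members called with an absolute log2 fold change of at least 0.5 and for SREBF1, SREBF2, INSIG1, INSIG2, SCAP and FASN, and other pathway genes are named where called with at least 1. ABCA1, ABCG1, ELOVL6, MVK and SQLE, named so in one comparison, are given in the other as well. Alternatives were other size factors, library size alone, no filter, a mean of at least 1 CPM, DESeq2 1.42.0, only the libraries compared, a replicate block and each library left out. Deviations from the group means of same-numbered libraries correlated at -0.02 to 0.03 between groups, so no large shift shared by such libraries was seen. These values cannot tell whether same-numbered libraries were handled together.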

Additional observations from a re-analysis of the deposited data

How the results depend on the processing

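Fitted to only the 4 libraries compared, KO against wt gave 5 members higher in place of 10, and KD against ctr gave 6 in place of 3. With single libraries left out, KO against wt gave 3928 to 5651 genes (5751 with all), 5 to 9 members higher and 7 to 9 lower, and KD against ctr gave 1360 to 3494 genes (2639 with all), 2 to 6 members higher and 6 to 14 lower. The difference of the effects then gave 3255 to 4789 genes (4381 with all) and 13 to 20 members, 13 without ctr replicate 2 or without KD replicate 2. In ctr against wt, 1553 to 3410 genes (3205 with all) and 2 to 8 members (10 with all) were called. A group left with 1 library was assumed to vary like the others. The counts fell in some of these fits and rose in others, and the part of having fewer libraries was not tested. With DESeq2, 4709 genes were called in KO against wt (8 members higher, 8 lower) and 2191 in KD against ctr (3 higher, 12 lower). The other settings kept these counts within 1.5 times, and no call of a member changed sign under any alternative. The replicate block fits a shift shared by same-numbered libraries. With it, 5500 genes were called in KO against wt (10 members higher, 11 lower) and 2483 in KD against ctr (3 higher, 11 lower). The difference then gave 4209 genes (19 members) and ctr against wt 3026 (9 members). With 2 libraries a group, changes can be missed, as many of 0.5 on the log2 scale were in the simulation. A member that did not pass is therefore not shown to be unaltered.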
